A study of Homo sapiens with 28 samples.

Results

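The 31 genes described here are those of homologous recombination and of the Fanconi pathway. They were chosen by name, from what their proteins do in DNA repair, though with earlier results of these data known. All 31 were present among the 13481 genes of the table for the compounds, the 12068 named genes of the table for the siRNA in H2009 and the 12384 genes of that for the siRNA in H596, and all 31 passed the filter on low values in each table. RNA was measured in 20 libraries of H596 and H2009, human non-small cell lung cancer lines that the labels give as adenocarcinoma with a wild-type genotype. RUVBL1, an AAA+ ATPase that works together with RUVBL2 in chaperoning large protein complexes, was knocked down with an siRNA (siBL1) for 3 days in H596 and 2.5 days in H2009, against a non-targeting siRNA (siNT) for the same time. In the same lines, 100 nM of compound B (compB), which the labels call an inhibitor of RUVBL1/RUVBL2, or of compound C (compC) for 24 h was set against untreated cells (untreat). Compounds B and C are known here only by these names, and the labels do not say how compound C relates to B. Each of these 10 groups had 2 libraries, and the labels do not state whether the pair came from separate cultures. The tests therefore rest on library-to-library spread alone.

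Homologous recombination repairs a double-strand break by copying the sister chromatid. The MRN complex (MRE11A, RAD50 and NBN) binds the broken ends, RBBP8 (CtIP) and EXO1 resect them to single strands, and BRCA1 with BARD1, PALB2 and BRCA2 prepares those strands for pairing with the sister. The Fanconi pathway acts where an interstrand crosslink stops a replication fork: a core complex with the ubiquitin ligase FANCL and the conjugating enzyme UBE2T attaches ubiquitin to FANCD2 and FANCI, and the crosslink is then cut and handed to recombination. Most of these genes are known to be transcribed more in S phase than in resting cells.

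Promoters of 28 of the 31 genes were found in the RefSeq table of build GRCh38.p14, which holds 250 bases before and 50 bases after each start. RAD54B, NBN and FANCI are named only. Sites read by E2F, the factors that drive S-phase transcription, were searched on both strands as TTTCCCGC or TTTGGCGC or TTTCGCGC or TTTGGCGG or TTTCCCGG. One of these stood in 6 of the members' 36 promoters (16.7%), which belong to RAD50, EXO1, XRCC2, UBE2T, FANCC and FANCD2, against 4.77% of all 35116 promoters. CHR letters (TTTGAA or TTTAAA) stood in 13.9% of the members' promoters and 24.0% of all, and CCAAT stood in 36.1% and 34.6%. A match is a run of letters and not a site known to be bound, and the motif groups can overlap one another. The 4 genes with promoters and the largest mean change over the 4 comparisons of RUVBL1 siRNA or compound B (FANCE, BRCA2, RAD51C and RAD51D) held none of these letters in the promoter listed first. RAD51C and BRCA2 are shown from among them because, with compound B in H2009, RAD51C fell and BRCA2 was called higher in the paired fit. UBE2T and FANCD2 were chosen after their matches were seen. They show an E2F match in genes that the paired fit called lower with the siRNA, UBE2T in H596 alone and FANCD2 in both lines. That fit called 26.6% of all genes lower in H596 and 27% in H2009. Of the other members with an E2F match, it called FANCC lower in both lines, EXO1 in H596, XRCC2 in H2009 and RAD50 in neither. Whether a match goes with a fall was not tested. The sequences run 5′ to 3′ along the gene's strand, and capitals mark the letters found.
RAD51C (chr17:58692323-58692622, + strand): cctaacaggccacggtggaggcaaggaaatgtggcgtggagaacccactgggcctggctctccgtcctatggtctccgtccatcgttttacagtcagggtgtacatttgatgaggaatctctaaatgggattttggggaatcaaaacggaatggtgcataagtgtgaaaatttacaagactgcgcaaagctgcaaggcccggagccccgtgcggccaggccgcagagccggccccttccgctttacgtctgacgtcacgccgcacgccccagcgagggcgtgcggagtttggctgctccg
BRCA2 (chr13:32315258-32315557, + strand): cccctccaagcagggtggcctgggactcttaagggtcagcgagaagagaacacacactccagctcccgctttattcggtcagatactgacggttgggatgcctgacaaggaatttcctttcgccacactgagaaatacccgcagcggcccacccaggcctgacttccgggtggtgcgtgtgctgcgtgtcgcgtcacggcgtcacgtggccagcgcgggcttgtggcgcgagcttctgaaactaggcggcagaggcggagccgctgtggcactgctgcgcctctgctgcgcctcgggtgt
UBE2T (chr1:202341887-202342186, - strand): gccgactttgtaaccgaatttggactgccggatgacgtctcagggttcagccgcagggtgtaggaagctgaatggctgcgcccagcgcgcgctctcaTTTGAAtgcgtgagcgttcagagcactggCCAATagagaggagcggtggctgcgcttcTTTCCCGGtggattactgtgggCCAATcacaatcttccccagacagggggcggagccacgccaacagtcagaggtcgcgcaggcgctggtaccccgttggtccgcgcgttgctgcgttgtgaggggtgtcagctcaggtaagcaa
FANCD2 (chr3:10026187-10026486, + strand): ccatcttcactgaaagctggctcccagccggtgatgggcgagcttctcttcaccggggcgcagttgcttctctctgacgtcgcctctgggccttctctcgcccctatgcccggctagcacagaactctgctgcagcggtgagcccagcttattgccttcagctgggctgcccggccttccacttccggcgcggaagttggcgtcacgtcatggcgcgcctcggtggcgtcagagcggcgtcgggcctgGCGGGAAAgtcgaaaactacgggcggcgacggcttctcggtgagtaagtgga
In UBE2T the capitals are, in order, a CHR match, a CCAAT box, the E2F letters TTTCCCGG and a second CCAAT box. In FANCD2 the only capitals are the E2F letters TTTCCCGC read on the opposite strand, GCGGGAAA, which begin 2 bases before the start.

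Values are FPKM, fragments scaled by transcript length and by the number mapped, which allow levels to be compared between genes. Differences are on the scale of log2(FPKM + 1), treated minus control, where changes of weakly transcribed genes come out too small. A gene was called at a Benjamini-Hochberg adjusted p under 0.05 over all genes tested. Results of a pair of limma fits stand side by side: the unpaired fit gives the main call, and the paired fit adds the replicate number as a block. They give the same differences and differ in their errors. With 4 libraries for the siRNA in each line, the block leaves each gene little spread of its own. Paired p-values there rest mostly on a spread estimated over all genes. Each SE and each interval printed is that of the unpaired fit, and the intervals are not adjusted for the number of genes tested.

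RUVBL1 had 2.26 and 2.52 FPKM with siBL1 in H596, against 112 and 123 FPKM with siNT. In H2009 it had 1.75 and 1.11 FPKM with siBL1, against 87.8 and 64.3 FPKM with siNT. Read depth is not recorded in these FPKM tables. All 5 epithelial markers were present in both lines, with summed levels of 1960 to 4390 FPKM over the H596 libraries and 827 to 3760 FPKM over the H2009 libraries. Of the lung adenocarcinoma lineage markers 1 of 3 was listed, at 0 to 1.04 FPKM in H596 and 15.8 to 117 FPKM in H2009. The 4 squamous markers summed to 344 to 1770 FPKM in H596 and 0 to 1.74 FPKM in H2009. Values of 0 here stand for genes not listed: NKX2-1 among the siRNA values of H596, and the squamous markers among those of H2009. Where listed in H596, NKX2-1 had at least 0.33 FPKM. Endothelial and fibroblast markers summed to at most 7.41 FPKM and leukocyte markers to at most 22.8 FPKM in any library. In bulk RNA, fewer cells of a type and less RNA per cell cannot be told apart.

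Levels in untreated cells spanned a wide range. In H596 the lowest mean was that of RAD52, a single-strand annealing protein, at 2.65 FPKM, and the highest that of RBBP8, the nuclease cofactor of resection, at 127.2 FPKM. In H2009 the lowest was FANCF, at 2.49 FPKM, and the highest NBN, at 65.8 FPKM, while RBBP8 had 36.8 FPKM. The libraries of the lines did not overlap for 14 genes that were higher in H596, where 37.8% of all tested genes did so, and for 8 genes that were lower in H596, where 31.4% of all did so. FANCD2 had 22.1 and 22.2 FPKM in untreated H596, against 9.49 and 10.9 FPKM in untreated H2009, and its partner FANCI averaged 48.38 FPKM in H596 and 24.99 FPKM in H2009. FANCE, the core subunit that contacts FANCD2, averaged 7.42 FPKM in H596 and 3.00 FPKM in H2009. The pattern was the opposite for BRCA2, with means of 4.83 FPKM in H596 and 10.5 FPKM in H2009, for BRCA1, with 10.0 and 19.4 FPKM in the same order, and for the strand-exchange mediator XRCC2, with 6.25 and 16.2 FPKM. These baseline levels are a description and were not tested.

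**Figure D1:**
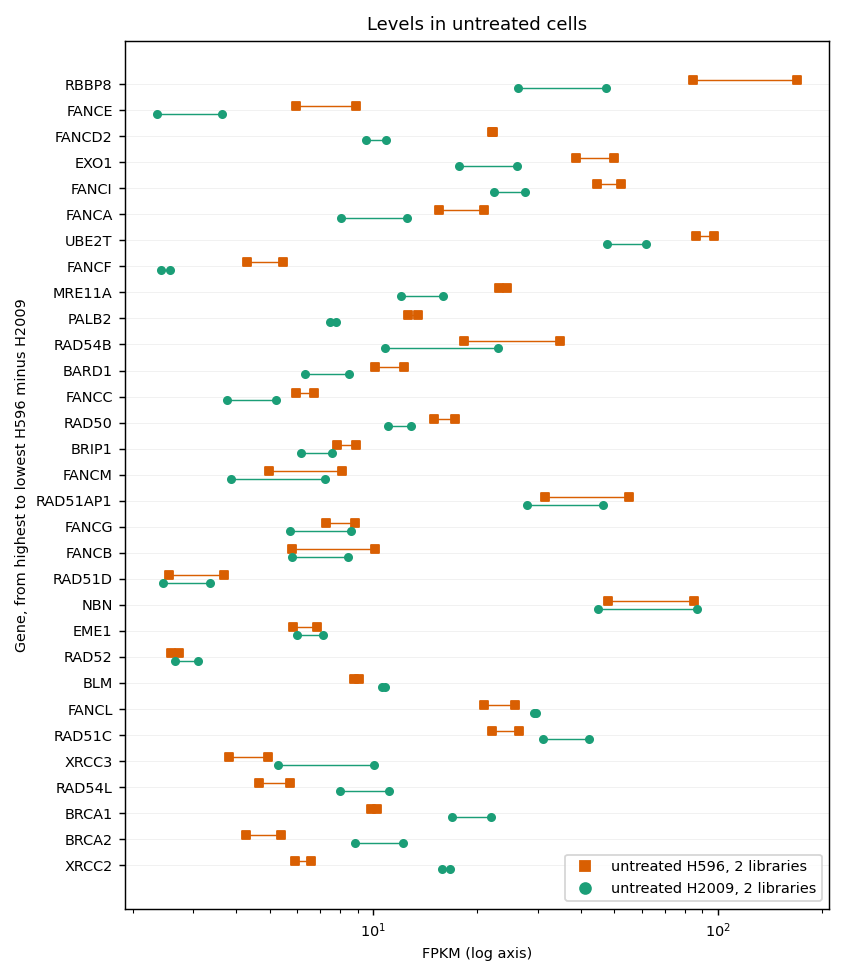
FPKM of each of the 31 genes (log axis) in the 2 untreated libraries of H596 (squares) and of H2009 (circles), ordered by H596 minus H2009, with a line joining the libraries of a line. RBBP8 and FANCE are at the top, and BRCA2 and XRCC2 at the bottom.

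Members also differed by replicate number. Replicate 2 lay above replicate 1 in all 10 groups for 9 of the 31 genes, among them NBN, RAD54B and RAD51AP1. Replicate 1 lay above replicate 2 in all 10 groups for another 8, among them FANCA, FANCE and XRCC3. NBN, for instance, differed between replicates 1 and 2 by between -1.38 and -0.48 on the log2 scale. The share of all genes with such a pattern is not given here. Over all genes the replicate differences correlated in all 45 pairs of groups (r 0.459 to 0.966), so they are not particular to the members. What a replicate number marks is not given in the labels, and its part in the results was not tested beyond the paired fit and the values within each number, which are given beside the results.

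With RUVBL1 siRNA in H2009 the differences of 24 of the 31 genes (77.4%) were below 0, where 57.6% of all 11223 genes tested were. The members' median difference was -0.26, against -0.08 over all genes. No member was called in the unpaired limma fit, where 0% of all genes were called. There 0 members had an unadjusted p under 0.05, where 532 of the 11223 genes did. In the paired fit 13 members were called lower and 3 higher. Before adjustment 18 of the 31 had a p under 0.05, where 5780 of the 11223 genes did. In that fit 27% of all genes were called lower and 15.4% higher, so the members' 16 calls (51.6%) compare with 42.4% of all genes. The libraries did not overlap for 8 members that were lower with siBL1, against 18.9% of all genes, and for 1 that was higher, against 12.1%.

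In end processing RBBP8 was lower, with 22.3 and 32.0 FPKM with siBL1, against 40.4 and 54.3 FPKM with siNT. The difference was -0.79 (SE 0.35, adjusted p 0.967 unpaired and 0.000717 paired). Both siBL1 libraries lay below both siNT libraries, and the differences within replicates 1 and 2 were -0.83 and -0.75. Of the MRN subunits MRE11A, the nuclease, was also called lower in the paired fit (-0.37, SE 0.42), while NBN (-0.19) and RAD50 (0.08) were not, nor was the exonuclease gene EXO1 (-0.23).

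The genes around BRCA1 did not move together. BRCA1, the ubiquitin ligase that promotes resection, had 21.7 and 28.4 FPKM with siBL1, against 29.8 and 36.0 FPKM with siNT, a difference of -0.39 (SE 0.32, paired adjusted p 0.0166). BRCA2, a mediator of strand exchange on single-stranded DNA, had 17.2 and 36.7 FPKM with siBL1, against 12.97 and 26.2 FPKM with siNT, a difference of 0.43 (SE 0.55, paired adjusted p 0.0122). The groups overlapped for BRCA2, and within replicates 1 and 2 it was higher by 0.38 and 0.47. PALB2, which joins BRCA1 to BRCA2, was higher by 0.35 (SE 0.29, paired adjusted p 0.0338). BARD1 (-0.29) and the helicase BRIP1 (-0.11) did not pass in either fit.

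Of the 8 genes that mediate strand exchange, 5 were called lower in the paired fit, where 27% of all genes were. None was called higher, where 15.4% of all were. XRCC3, which works in a complex with RAD51C, had 3.98 and 1.11 FPKM with siBL1, against 6.61 and 2.26 FPKM with siNT. The groups overlapped, yet the differences within replicates 1 and 2 were -0.61 and -0.63 (mean -0.62, SE 0.63, paired adjusted p 0.00551). Leaving out 1 library gave differences of -1.24 to -0.0006. XRCC2 had 17.3 and 13.7 FPKM with siBL1, against 24.95 and 19.5 FPKM with siNT (-0.49, SE 0.32, paired adjusted p 0.00685). RAD51C, which works in separate complexes with XRCC3 and with RAD51D and XRCC2, had 32.3 and 28.6 FPKM with siBL1, against 50.03 and 35.5 FPKM with siNT (-0.46, SE 0.33, paired adjusted p 0.0118). The groups did not overlap for XRCC2 and RAD51C. The translocases RAD54L (-0.36) and RAD54B (-0.35) were called in the paired fit, with overlapping groups. RAD51D (-0.30), RAD52 (-0.04) and RAD51AP1 (0.09) were not called, and neither was EME1 (-0.18), a subunit of the MUS81 nuclease. BLM, the helicase that dissolves joined chromatids, had 17.7 and 22.5 FPKM with siBL1, against 19.02 and 19.16 FPKM with siNT (0.06, SE 0.30). Its groups overlapped and it was not called.

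In the Fanconi pathway FANCL showed the lowest value of all members, -0.80 (SE 0.31, adjusted p 0.967 unpaired and 0.000751 paired). It had 18.4 and 15.02 FPKM with siBL1, against 32.7 and 27.0 FPKM with siNT, and the groups did not overlap. Its substrates were lower as well. FANCI had 24.0 and 25.2 FPKM with siBL1, against 36.1 and 39.2 FPKM with siNT (-0.59, SE 0.28, paired adjusted p 0.00243), and FANCD2 had 11.6 and 10.7 FPKM with siBL1, against 14.9 and 14.6 FPKM with siNT (-0.37, SE 0.29, paired adjusted p 0.0274). FANCE had 2.33 and 0.977 FPKM with siBL1, against 3.02 and 2.08 FPKM with siNT (-0.45, SE 0.37), and FANCC, its neighbour in the core complex, had 4.83 and 2.66 FPKM, against 5.73 and 4.73 FPKM (-0.43, SE 0.36). Both were called lower in the paired fit although their groups overlapped, and the values without 1 library were -0.83 to -0.08 for FANCE and -0.76 to -0.09 for FANCC. FANCM, the translocase that brings the core complex to DNA, was called higher there, with 5.52 and 13.3 FPKM with siBL1, against 4.36 and 7.82 FPKM with siNT (0.49, SE 0.53). The scaffold FANCA had 12.5 and 5.85 FPKM with siBL1, against 9.83 and 6.87 FPKM with siNT (0.06, SE 0.46). It was not called, nor were FANCB (-0.11), FANCF (-0.25), FANCG (-0.01) and UBE2T (-0.26).

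**Figure D2:**
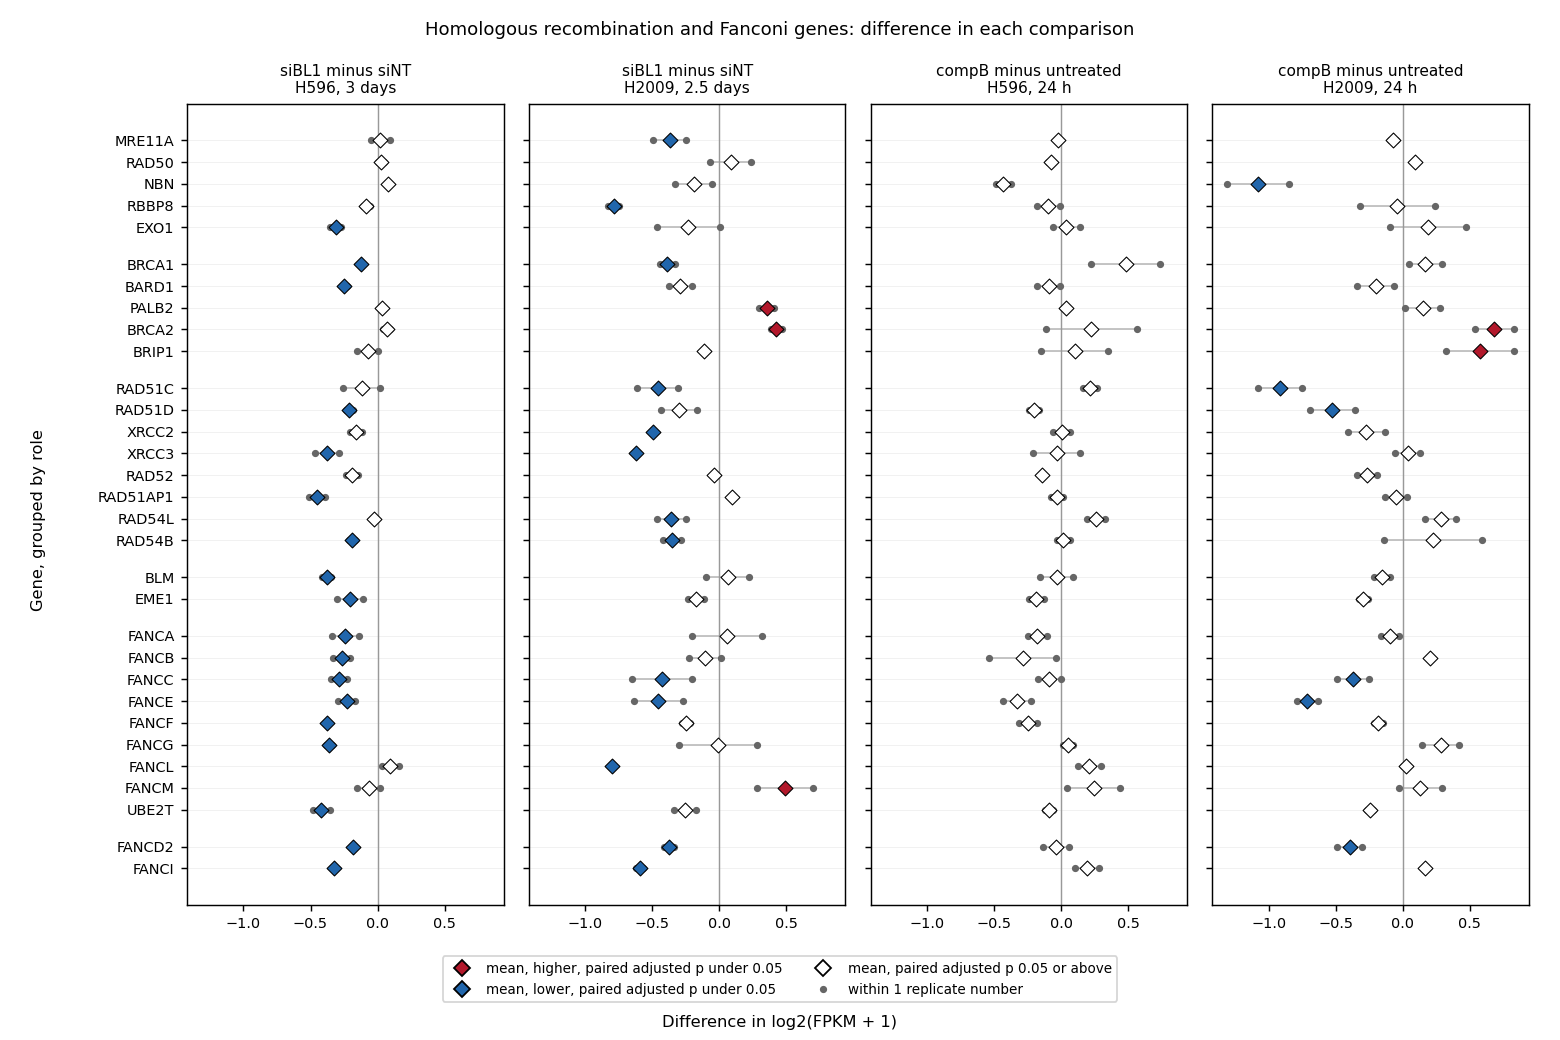
Difference in log2(FPKM + 1) of each gene, treated minus control, by role from top to bottom (MRN and resection, BRCA1 and partners, strand-exchange mediators, resolution, Fanconi core and UBE2T, FANCD2 and FANCI). Diamonds are means, filled where the paired adjusted p is under 0.05, and dots are the differences within replicate 1 and within replicate 2. With siBL1 in H596 the 18 filled diamonds all lie below 0, in H2009 13 lie below and 3 above, and with compound B none is filled in H596 and 8 are filled in H2009.

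RUVBL1 siRNA in H596 was accompanied by differences between -0.45 and 0.09, and 25 of the 31 members (80.6%) were below 0, where 52.8% of all genes were. The members' median was -0.19 against -0.01 over all 12004 genes tested. The unpaired limma fit called 0 members (0% of all genes). None reached 0.05 before adjustment, where 137 of the 12004 genes did. With the block, 18 members were called lower, where 26.6% of all genes were called lower, and 0 higher, where 19.8% of all were called higher. In that fit 20 of the 31 members had an unadjusted p under 0.05, where 6535 of the 12004 genes did. The members' 58.1% compare with 46.4% of all genes called in either direction. The groups did not overlap for 6 members that were lower, against 8.64% of all genes, and for 1 that was higher, against 9%.

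The Fanconi core with UBE2T, 9 genes, held 7 of these 18, where 26.6% of all genes were called lower. UBE2T, the enzyme that supplies ubiquitin to FANCD2 and FANCI, had 68.8 and 74.1 FPKM with siBL1, against 96.6 and 95.1 FPKM with siNT, a difference of -0.42 (SE 0.21, adjusted p 1.00 unpaired and 0.000603 paired) with no overlap. FANCF, an adaptor of the core complex, had 4.01 and 3.94 FPKM with siBL1, against 5.56 and 5.38 FPKM with siNT (-0.38, SE 0.19, paired adjusted p 0.00168), also with no overlap. FANCG, which binds FANCA, had 10.2 and 5.07 FPKM with siBL1, against 13.6 and 6.68 FPKM with siNT. Its groups overlapped, and the differences within replicates 1 and 2 were -0.38 and -0.34. FANCC had 5.73 and 3.91 FPKM with siBL1, against 6.91 and 5.25 FPKM with siNT (-0.29, SE 0.28). FANCB had 3.45 and 7.08 FPKM, against 4.12 and 9.17 FPKM (-0.27, SE 0.49). FANCA had 16.8 and 10.0 FPKM with siBL1, against 21.6 and 11.1 FPKM with siNT (-0.24, SE 0.45), and FANCE was lower by a similar amount (-0.23, SE 0.49). FANCL, the member with the lowest value in H2009, had 25.05 and 27.2 FPKM with siBL1 in H596, against 24.5 and 24.3 FPKM with siNT (0.09, SE 0.21, paired adjusted p 0.126). The difference between the lines in the siRNA effect was not tested, since the tables may have been normalised separately and the times differed.

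FANCI had 31.8 and 35.0 FPKM with siBL1 in H596, against 39.9 and 44.4 FPKM with siNT (-0.32, SE 0.22, paired adjusted p 0.000788). FANCD2 had 15.01 and 14.3 FPKM with siBL1, against 17.3 and 16.4 FPKM with siNT (-0.19, SE 0.21, paired adjusted p 0.00855). Neither overlapped between groups.

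Among the recombination genes RAD51AP1, which stimulates strand pairing, was the lowest at -0.45 (SE 0.44, adjusted p 1.00 unpaired and 0.000511 paired), a value of -0.87 to -0.03 when 1 library was left out. It had 17.7 and 29.9 FPKM with siBL1, against 23.5 and 42.9 FPKM with siNT. The groups overlapped, while the differences within replicates 1 and 2 were -0.39 and -0.51. BLM had 3.99 and 6.49 FPKM with siBL1, against 5.64 and 8.52 FPKM with siNT (-0.38, SE 0.34, paired adjusted p 0.00147), and -0.67 to -0.09 when 1 library was left out. XRCC3 had 9.46 and 4.16 FPKM with siBL1, against 11.8 and 6.13 FPKM with siNT (-0.38, SE 0.50, paired adjusted p 0.00264). EXO1 had 15.8 and 25.3 FPKM with siBL1, against 19.2 and 32.6 FPKM with siNT (-0.31, SE 0.40, paired adjusted p 0.00147). BLM, XRCC3 and EXO1 overlapped between groups. BRCA1 had 6.45 and 9.83 FPKM with siBL1, against 7.15 and 10.8 FPKM with siNT (-0.13, SE 0.33, paired adjusted p 0.0494). The paired fit also called BARD1 (-0.25), RAD51D (-0.21), RAD54B (-0.19) and EME1 (-0.21) lower. BRCA2 had 2.39 and 6.26 FPKM with siBL1, against 2.29 and 5.81 FPKM with siNT, and was not called (0.07, SE 0.56). The MRN subunits stood at 0.02 to 0.08 and RBBP8 at -0.08, none of them called.

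**Figure D3:**
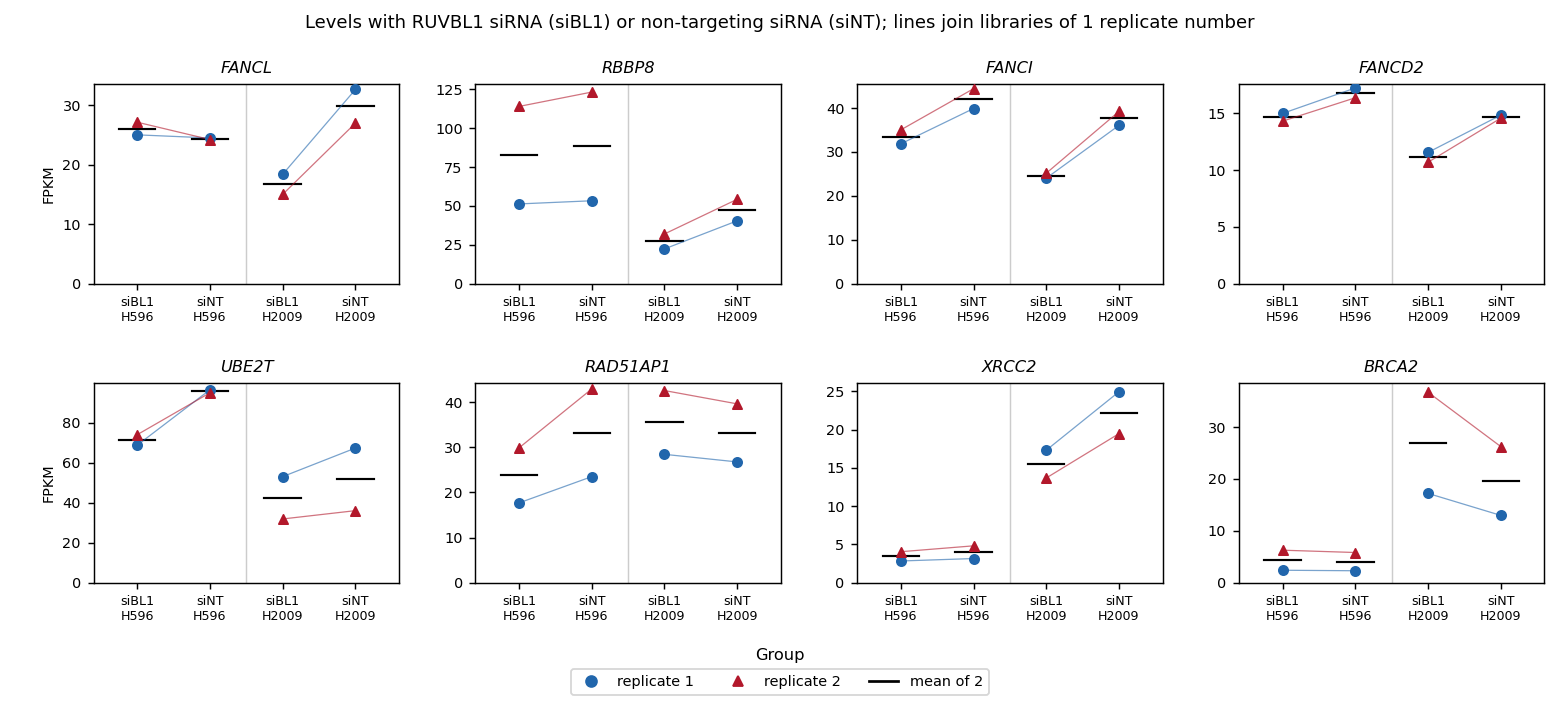
FPKM of 8 genes in the libraries with siBL1 and siNT, H596 at left and H2009 at right of each panel. Circles are replicate 1, triangles replicate 2, bars the mean of 2, and lines join libraries of 1 replicate number. In H2009 both siBL1 libraries of FANCL and RBBP8 lie below both siNT libraries, and in H596 those of FANCL lie above.

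Between the siRNA comparisons, which share no libraries, 21 of the 31 members (67.7%) were below 0 in both lines, where 40.3% of the 10323 genes tested in both tables were. The paired fit called 7 members (22.6%) lower in both, where it called 13.8% of those genes lower in both. The 7 were BRCA1, RAD54B, XRCC3, FANCC, FANCE, FANCD2 and FANCI. They make 38.9% of the 18 called in H596 and 53.8% of the 13 called in H2009. No member was called higher in both, where 6.5% of those genes were. Whether the members differ from all genes in these shares was not tested.

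Compound B for 24 h in H2009 gave calls in both directions and a median near 0, -0.05 for the members and -0.01 for all 12781 genes. The unpaired limma fit called 1 member lower, RAD51C, where 5.02% of all genes were called lower, and 0 higher, where 6.36% were. That is 3.23% of the members against 11.4% of all genes, a count of 1455 genes that was 353 to 660 when any 1 of the 4 libraries was left out. At an unadjusted p under 0.05 in the unpaired fit there were 4 of the 31 members, where 3331 of the 12781 genes were. The paired fit called 6 members lower, where 22.4% of all genes were, and 2 higher, where 22.2% of all were. The members' 25.8% lay below the 44.6% of all genes called in that fit. The groups did not overlap for 11 members that were lower, where 28.1% of all genes did so, and 3 that were higher, where 26.3% of all did so.

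RAD51C had 18.1 and 19.5 FPKM with compound B, against 31.1 and 42.3 FPKM in untreated H2009, and the compound B libraries lay below both untreated ones. It fell by 0.92 on the log2 scale (SE 0.24, adjusted p 0.0374 unpaired and 0.000226 paired). The unpaired call was lost when any of the 4 libraries was left out, with differences of -1.13 to -0.70 and adjusted p of 0.0564 to 0.21. It was also lost with quantile normalisation (-0.84, adjusted p 0.0649) and when the libraries of H2009 were fitted alone (adjusted p 0.096). RAD51D, which binds RAD51C and XRCC2 in one complex, had 1.70 and 1.69 FPKM with compound B, against 3.35 and 2.46 FPKM in untreated cells (-0.52, SE 0.25, adjusted p 0.218 unpaired and 0.00357 paired). Its groups did not overlap. The other strand-exchange mediators were not called, with XRCC2 at -0.27, XRCC3 at 0.04, RAD52 at -0.27, RAD51AP1 at -0.05, RAD54L at 0.28 and RAD54B at 0.22.

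NBN, the MRN subunit that recruits the kinase ATM, showed the lowest value of all members. It had 24.4 and 34.4 FPKM with compound B, against 44.7 and 86.9 FPKM in untreated cells, a difference of -1.08 (SE 0.47). The groups did not overlap, and the differences within replicates 1 and 2 were -0.85 and -1.31 (adjusted p 0.179 unpaired and 0.000184 paired). Its partners MRE11A (-0.07) and RAD50 (0.09) were not called, nor were RBBP8 (-0.04) and EXO1 (0.19).

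BRCA2 and BRIP1 were the members called higher in the paired fit. BRCA2 had 16.4 and 18.1 FPKM with compound B, against 8.83 and 12.2 FPKM in untreated cells (0.68, SE 0.32, adjusted p 0.212 unpaired and 0.026 paired). BRIP1, the FANCJ helicase, had 11.8 and 9.75 FPKM with compound B, against 6.17 and 7.58 FPKM in untreated cells (0.58, SE 0.21, adjusted p 0.112 unpaired and 0.0171 paired). Neither overlapped between groups. BRCA1 had 20.8 and 22.7 FPKM, against 16.9 and 22.0 FPKM (0.17, SE 0.22), and was not called.

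Of the Fanconi genes FANCE had 1.68 and 1.17 FPKM with compound B, against 3.64 and 2.36 FPKM in untreated cells (-0.71, SE 0.30, adjusted p 0.173 unpaired and 0.000592 paired). FANCD2 had 6.48 and 8.64 FPKM with compound B, against 9.49 and 10.9 FPKM in untreated cells (-0.40, SE 0.19, paired adjusted p 0.0203). FANCC had 3.42 and 3.00 FPKM with compound B, against 5.22 and 3.76 FPKM (-0.37, SE 0.22, paired adjusted p 0.022). None of the 3 overlapped between groups. FANCI had 25.2 and 30.98 FPKM with compound B, against 22.5 and 27.5 FPKM in untreated cells (0.16, SE 0.22), and FANCA had 11.1 and 7.87 FPKM, against 12.6 and 8.07 FPKM (-0.10, SE 0.35). BLM had 9.83 and 9.17 FPKM, against 10.6 and 10.8 FPKM (-0.16, SE 0.20). None of these was called. FANCL had 29.3 and 30.4 FPKM with compound B, against 29.2 and 29.6 FPKM in untreated H2009 (0.02, SE 0.22).

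**Figure D4:**
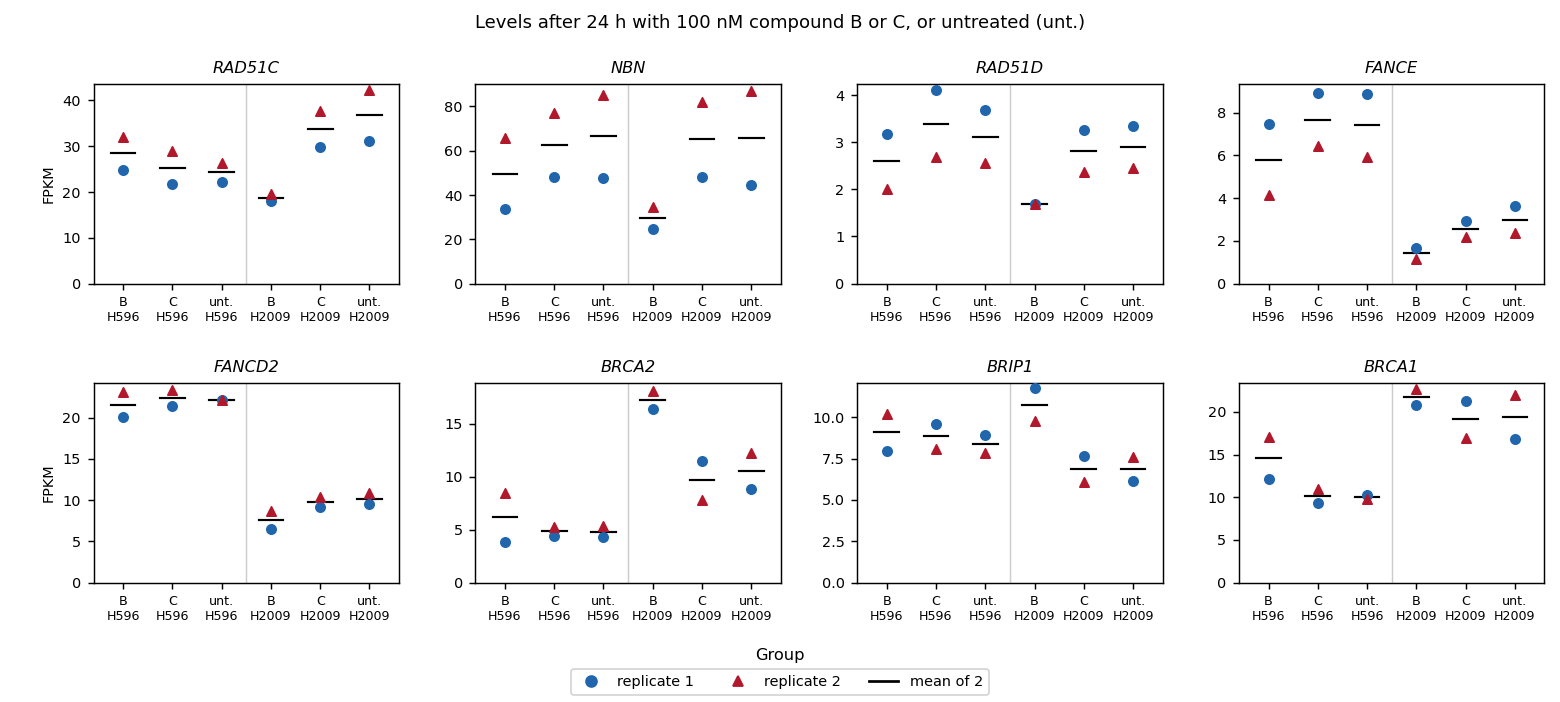
FPKM of 8 genes with compound B (B), compound C (C) or no treatment (unt.), H596 at left and H2009 at right of each panel. Circles are replicate 1, triangles replicate 2 and bars the mean of 2. In H2009 the compound B libraries lie below both other groups for RAD51C, NBN, RAD51D, FANCE and FANCD2 and above them for BRCA2 and BRIP1.

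The siRNA and compound B in H2009 were measured in different tables and share no libraries. Called lower in both paired fits were RAD51C, FANCC, FANCE and FANCD2, which are 66.7% of the 6 members with compound B and 30.8% of the 13 with the siRNA. These 4 are 12.9% of the 31 members, and 13.2% of the 11074 genes tested in both tables were called lower in both. BRCA2 was the 1 member called higher in both (3.23%), where 8.39% of those genes were. RBBP8 and FANCI, at -0.79 and -0.59 with the siRNA, stood at -0.04 and 0.16 with compound B, and NBN, at -1.08 with compound B, stood at -0.19 with the siRNA. The times of treatment differed, and the difference between the treatments was not tested.

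In H596 compound B called 0 members in the unpaired limma fit (0% of all genes). There 0 members had an unadjusted p under 0.05, where 735 of the 12781 genes did. In the paired fit compound B again called 0 members, where 6.67% of all genes were called (3.79% higher and 2.89% lower). Before adjustment 3 members had a p under 0.05, where 2842 of the 12781 genes did. The groups did not overlap for 3 members that were lower, where 15.2% of all genes did so. They did not overlap for 3 that were higher, where 12.8% of all did so. Differences ran from -0.43 for NBN to 0.48 for BRCA1. BRCA1 had 12.1 and 17.01 FPKM with compound B, against 10.2 and 9.82 FPKM in untreated H596 (0.48, SE 0.22, adjusted p 0.879 unpaired and 0.122 paired), with no overlap. NBN had 33.8 and 65.5 FPKM, against 47.8 and 85.2 FPKM (-0.43, SE 0.47, paired adjusted p 0.107). The groups of NBN overlapped, and it was lower within both replicates. BRCA2 had 3.88 and 8.45 FPKM with compound B in H596, against 4.28 and 5.39 FPKM in untreated H596 (0.23, SE 0.32). FANCI had 47.9 and 63.6 FPKM with compound B, against 44.5 and 52.2 FPKM in untreated cells (0.19, SE 0.22). The groups overlapped for both of these genes and for the 3 that follow. FANCD2 had 20.1 and 23.1 FPKM with compound B, against 22.1 and 22.2 FPKM in untreated cells (-0.04, SE 0.19). FANCA had 19.3 and 12.9 FPKM with compound B, against 20.9 and 15.5 FPKM in untreated cells (-0.18, SE 0.35), and BLM had 7.77 and 9.74 FPKM, against 8.78 and 9.10 FPKM (-0.03, SE 0.20).

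RAD51C differed between the lines in its response to compound B in the paired fit. It had 24.9 and 32.1 FPKM with compound B in H596, against 22.1 and 26.4 FPKM in untreated H596, a difference of 0.22 (SE 0.24), while in H2009 it was lower by the amount given above. The difference of the differences, H596 minus H2009, was 1.13 (SE 0.34, 95% confidence interval 0.38 to 1.89), with values of 0.91 and 1.35 within replicates 1 and 2. Without the block its adjusted p was 0.262, and 0 members were called, against 0.454% of all genes (0.125% higher). With the block it was 0.00264, and RAD51C was the 1 member called, higher, where 6.11% of all genes were called higher. For NBN the same difference was 0.65 (SE 0.66, adjusted p 0.939 unpaired and 0.0595 paired).

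Compound C against untreated cells called 0 of the 31 members in either fit, in either line. In H2009 the unpaired fit called 0.00782% of all genes and the paired fit 0.0156%, and in H596 both called 0%. Before adjustment no member reached 0.05 in these 4 fits. Of the 12781 genes, 9 did in H2009 and 20 in H596 in the unpaired fit. In the paired fit 177 did in H2009 and 182 in H596. Differences lay between -0.15 and 0.09 in H596 and between -0.16 and 0.18 in H2009. The intervals are wide: for RAD51C in H2009 the difference was -0.11 with a 95% confidence interval of -0.64 to 0.42, so a smaller change than that with compound B cannot be told from none.

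Compounds B and C were compared at the same dose and time, as 1 pair in each line, with p-values adjusted over all genes of a line. Both comparisons against untreated cells, given above, use the same untreated libraries. The compounds are therefore set against each other only by the direct comparison. In H2009 the unpaired limma fit called 0 members, where 11.4% of all genes were called (5.28% lower and 6.16% higher). There 4 members had an unadjusted p under 0.05, where 3384 of the 12781 genes did. Leaving out 1 of the 4 libraries gave 345 to 1634 genes called, against 1462 with all of them. With the block, the fit called 6 members lower, where 24% of all genes were, and 3 higher, where 21.6% of all were. That is 29% of the members against 45.6% of all genes. The groups did not overlap for 11 members that were lower, where 27.2% of all genes did so. They did not overlap for 5 that were higher, where 24.8% of all did so. RAD51C had 18.1 and 19.5 FPKM with compound B, against 29.9 and 37.6 FPKM with compound C, a difference of -0.80 with an interval of -1.34 to -0.27 (adjusted p 0.059 unpaired and 0.000525 paired). NBN had 24.4 and 34.4 FPKM with compound B, against 48.2 and 82.0 FPKM with compound C (-1.09, interval -2.14 to -0.04, paired adjusted p 0.000171). BRCA2 had 16.4 and 18.1 FPKM with compound B, against 11.5 and 7.84 FPKM with compound C (0.80, interval 0.09 to 1.51, paired adjusted p 0.0122), and BRIP1 had 11.8 and 9.75 FPKM, against 7.66 and 6.06 FPKM (0.58, interval 0.11 to 1.05, paired adjusted p 0.0163). The compound B libraries did not overlap those of compound C for any of these 4 genes. The paired fit also called 4 members lower and 1 higher, each without overlap. FANCE had 1.68 and 1.17 FPKM with compound B, against 2.91 and 2.198 FPKM with compound C (-0.55, SE 0.30), and RAD51D had 1.70 and 1.69 FPKM, against 3.27 and 2.37 FPKM (-0.49, SE 0.25). FANCD2 had 6.48 and 8.64 FPKM with compound B, against 9.16 and 10.4 FPKM with compound C (-0.34, SE 0.19). XRCC2 had 15.10 and 11.7 FPKM, against 19.2 and 15.12 FPKM (-0.34, SE 0.20), so that its groups barely parted. RAD54L, the 1 called higher, had 12.6 and 10.83 FPKM with compound B, against 10.76 and 7.68 FPKM with compound C (0.33, SE 0.22).

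In H596 the same comparison of B with C called 0 members in either fit. The unpaired fit called 0.00782% of all genes and the paired fit 4.66% (1.67% lower and 2.99% higher). At an unadjusted p under 0.05 there were 0 members in the unpaired and 6 in the paired fit. Of the 12781 genes, 599 and 2462 were, in the same order. RAD51C had 24.9 and 32.1 FPKM with compound B, against 21.7 and 28.9 FPKM with compound C, a difference of 0.17 with an interval of -0.37 to 0.70. BRCA1 had 12.1 and 17.01 FPKM with compound B, against 9.38 and 11.0 FPKM with compound C (0.47, interval -0.03 to 0.96).

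Other genes of the same pathways were counted from lists chosen with earlier results of these data known. Of 32 further recombination and crosslink repair genes, the paired fit called 1 higher and 12 lower with siBL1 in H596, 5 higher and 10 lower with siBL1 in H2009, 5 higher and 2 lower with compound B in H2009 and 0 with compound B in H596. The unpaired fit called 0 of them with siBL1 in either line, 1 with compound B in H2009 and 0 with compound B in H596. That 1 is 3.12% of them, where 11.4% of all genes were called in that fit. With siBL1 the paired shares called either way were 40.6% in H596 and 46.9% in H2009, where 46.4% and 42.4% of all genes were called. With compound B in H2009 the share was 21.9%, where 44.6% of all were. The median difference of these 32 genes with siBL1 was -0.10 in H596 and 0.03 in H2009, beside -0.19 and -0.26 for the members. Below 0 were 65.6% and 43.8% of the 32, beside 80.6% and 77.4% of the members and 52.8% and 57.6% of all genes. With compound B their median was 0.08 in H596 and 0.09 in H2009, with 21.9% and 40.6% below 0. These differences from the members were not tested. APITD1, a histone-fold partner of FANCM, was called lower with siBL1 in the paired fit alone, at -0.43 in H596 (SE 0.23, adjusted p 1.00 unpaired and 0.00161 paired) and -1.24 in H2009 (SE 0.52, adjusted p 0.967 unpaired and 0.00033 paired). The helicase HELQ was called higher with siBL1 in H2009 in the paired fit alone (0.72, SE 0.34, adjusted p 0.967 unpaired and 0.00224 paired). With compound B in H2009 the nuclease gene ERCC4 rose, with 5.16 and 4.35 FPKM against 2.60 and 2.74 FPKM in untreated cells (0.64, SE 0.16, adjusted p 0.0356 unpaired). The nuclease and helicase gene DNA2 was called lower there in the paired fit alone (-0.58, SE 0.31, adjusted p 0.282 unpaired and 0.00219 paired).

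Of 35 damage signalling and end joining genes, the paired fit called 2 higher and 16 lower with siBL1 in H596, 3 higher and 15 lower with siBL1 in H2009, 0 higher and 1 lower with compound B in H596, and 3 higher and 12 lower with compound B in H2009. The unpaired fit called 0, 0, 0 and 6 of them in the same order. Those 6 are 17.1% of them, where 11.4% of all genes were called in that fit. The paired shares were 51.4% with siBL1 in each line, against 46.4% of all genes in H596 and 42.4% in H2009. With compound B in H2009 the paired share was 42.9%, against 44.6% of all genes. CHEK2, the checkpoint kinase downstream of ATM, had 2.45 and 2.89 FPKM with compound B in H2009, against 7.001 and 10.4 FPKM in untreated cells (-1.38, SE 0.30, adjusted p 0.0174 unpaired). With siBL1 in H2009 it had 2.46 and 2.44 FPKM, against 9.17 and 10.1 FPKM with siNT (-1.62, SE 0.28, adjusted p 0.967 unpaired and 0.000163 paired). The DNA ligase gene LIG3 had 8.86 and 10.6 FPKM with compound B in H2009, against 21.5 and 19.1 FPKM (-0.99, SE 0.17, adjusted p 0.00673 unpaired).

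Of 25 markers of S phase and mitosis, the paired fit called 22 lower and 1 higher with siBL1 in H596, 17 lower and 0 higher with siBL1 in H2009, 4 lower and 0 higher with compound B in H596, and 14 lower and 2 higher with compound B in H2009. The unpaired fit called 0, 0, 0 and 6 of them in the same order. Those 6 are 24% of them, where 11.4% of all genes were called in that fit. The paired shares called either way were 92% with siBL1 in H596 and 68% in H2009, where 46.4% and 42.4% of all genes were called. For compound B the shares were 16% in H596 and 64% in H2009, where 6.67% and 44.6% of all were called. Their summed levels were 1735 and 1682 FPKM with siBL1 in H596, against 2320 and 2258 FPKM with siNT, and 2064 and 1876 FPKM with siBL1 in H2009, against 2800 and 2600 FPKM with siNT. With compound B they were 2361 and 2463 FPKM in H596, against 2930 and 3105 FPKM in untreated cells, and 2005 and 2063 FPKM in H2009, against 2895 and 2932 FPKM. Their median difference in H2009 was -0.49 with siBL1 and -0.48 with compound B, beside -0.26 and -0.05 for the 31 members. Their median in H596 was -0.36 with siBL1 and -0.28 with compound B, beside -0.19 and -0.03 for the members. Their part in the results for the members was not tested.

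**Figure D5:**
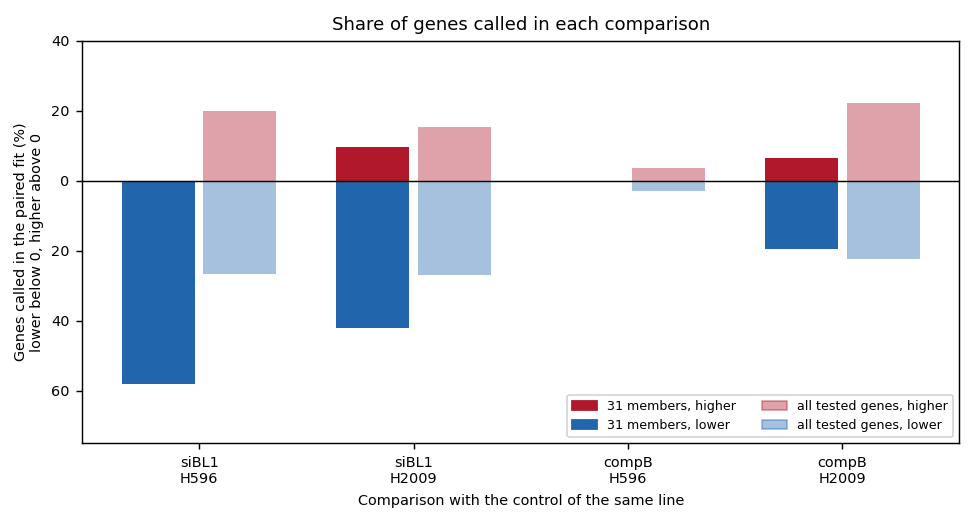
Percent of the 31 members (full colour) and of all tested genes (pale) called in the paired fit, higher above 0 and lower below 0, in each comparison with the control of the same line. With siBL1 the members' share of lower calls exceeds that of all genes in both lines, and with compound B in H2009 it does not.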

How the data were processed

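RNA was measured in 20 libraries made with a stranded mRNA kit, per the labels' protocols. The authors deposited FPKM per gene in 3 tables. The submitters' processing notes name Cufflinks 2.2.1, TopHat2 2.0.12, CASAVA 1.8.2 and the build hg19; the annotation, the table-wide scaling and the use of strand in counting are not given in the sources used here. The tables may have been normalised separately, so tests were made within a table. From the siRNA values of H2009, 19 rows with names turned into dates were left out.

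The test was limma (version 3.58.1, R 4.3.3), with a trended prior, on log2 of the deposited FPKM plus a pseudocount of 1, over genes with a mean FPKM of at least 1 (in the compound table, in at least 1 line), with Benjamini-Hochberg adjustment. All 12 compound libraries entered 1 fit. Both fits were first tried on simulated data with known answers, with the replicate difference absent or alike in every group. That trial cannot show whether equal replicate numbers pair the libraries. The paired fit has a block for the replicate number, in the compound table for each line. The differences between replicates 1 and 2 correlated across genes in all 45 pairs of the 10 groups (r 0.459 to 0.966), but the labels do not say what the numbers mark, so the unpaired fit remains the main one. This was judged with the counts of calls from both fits already known. Depth is unknown. The members, lists and tests were chosen with earlier results of these data known. Values per library are given for at most the 10 members with the largest difference among those called in a comparison, and, for siBL1 and for compound B against untreated cells, for BRCA1, BRCA2, FANCD2, FANCI, FANCA and BLM; of each other list, up to 3 called genes with the largest difference. FANCL with compound B in H2009 and with siBL1 in H596, RAD51C and NBN with compound B in H596, BRCA1 against compound C in H596 and the genes named for baseline levels fall outside this rule and were chosen after their values were seen. Alternatives were a pseudocount of 0.1, no filter, quantile normalisation, the libraries of 1 line alone, leaving out each library, and, added after seeing the data, the block with quantile normalisation. The 8 libraries of mutated RUVBL1 or RUVBL2 cDNA were not used here. One further gene of the lists is not reported here by name.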

Additional observations from a re-analysis of the deposited data

Results flagged for a closer look

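RAD51C was singled out for its response to compound B in the 2 lines. The difference of the differences in log2(FPKM + 1), H596 minus H2009, was 1.13, and it was picked out because that difference passed its own limma test in the paired fit (adjusted p 0.00264). It did not pass in the unpaired fit (adjusted p 0.262). Leaving out any of the 8 libraries gave values between 0.92 and 1.35. With 2 libraries per group no single library could be tested for standing apart.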

How the results depend on the processing

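The replicate block moved the counts of members called the most. With the block, 18 members were called with siBL1 in H596, 16 with siBL1 in H2009, 8 with compound B against untreated H2009, 9 with compound B against compound C in H2009 and 1 in the difference between lines in the compound B effect. Adding quantile normalization to the block made these counts 20, 15, 11, 12 and 3 in the same order. Without the block these counts were 0, 0, 1, 0 and 0. Quantile normalization alone gave 2 for compound B against untreated H2009 and 1 for compound B against compound C, and fitting H2009 alone gave 0 for compound B. Leaving out any 1 of the 4 H2009 libraries compared also gave 0 to 0 for compound B. A pseudocount of 0.1 or no filter on low FPKM moved none of these counts by over 1.5 times. How many of all genes were called with quantile normalization or in H2009 alone is not given here. The counts under those settings therefore show nothing particular to the members.

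Some unpaired differences changed sign when 1 library was left out. With siBL1 in H596 the ranges were -0.50 to 0.0074 for BARD1, -0.40 to 0.14 for BRCA1, -0.68 to 0.054 for EXO1, -0.69 to 0.21 for FANCA, -0.76 to 0.23 for FANCB, -0.72 to 0.26 for FANCE, -0.83 to 0.10 for FANCG, -0.63 to 0.21 for RAD51D, -0.60 to 0.22 for RAD54B and -0.89 to 0.13 for XRCC3. With siBL1 in H2009 they were -0.10 to 0.95 for BRCA2, -0.077 to 1.06 for FANCM, -0.76 to 0.0196 for MRE11A, -0.90 to 0.20 for RAD54B and -0.90 to 0.19 for RAD54L. Of the 52 differences of members that the paired fit called, 15 changed sign in this way, 18 kept it and moved by over 1.5 times, and 19 kept it and moved by less. Among the 18 were RAD51AP1 and BLM with siBL1 in H596 (-0.87 to -0.03 and -0.67 to -0.09) and XRCC3 and FANCE with siBL1 in H2009 (-1.24 to -0.0006 and -0.83 to -0.08). Removing a library leaves its group with replicate 1 or 2 alone, so these differences include that between replicate numbers.

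Over all genes the unpaired and paired fits called 0 and 5574 genes with siBL1 in H596, 0 and 4758 with siBL1 in H2009, 1455 and 5696 with compound B in H2009 and 0 and 853 with compound B in H596. With 1 library left out the unpaired count was 353 to 660 for compound B against untreated H2009 and 345 to 1634 for compound B against compound C in H2009. The labels do not say that equal numbers pair the libraries, so a call that exists only with the block rests on that pairing. With 2 libraries a group and unknown depth, a difference that was not called may still exist.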
